A study of Mus musculus with 23 samples.

Results

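The miR-15 and miR-16 seed family, with miR-195, miR-497, miR-322 and miR-503, is a set of microRNAs that share a seed, the bases near the 5′ end with which a microRNA pairs to its target messenger RNAs. Its members were taken by name and identifier, as miR-15a-5p (MIMAT0000526), miR-15b-5p (MIMAT0000124), miR-16-5p (MIMAT0000527), miR-195a-5p (MIMAT0000225), miR-497a-5p (MIMAT0003453), miR-322-5p (MIMAT0000548) and miR-503-5p (MIMAT0003188). No measured value entered the list, but it was drawn up with earlier results of these data known. All 7 were among the 602 microRNA probes of the panel, and all 7 rose above background in at least 2 samples, as did 302 probes in all. MicroRNAs were measured with nCounter, a hybridisation assay that counts barcoded probes one by one without amplification, in cells sorted from lungs of C57BL6 mice with the wild-type genotype. Of the 23 samples, 13 were of type II pneumocytes (AT2), the surfactant-making cells of the alveolus, sorted on CD326, and 10 were of endothelial cells (EC), sorted on CD31. No agent or altered allele is given for any group, and the question was how levels change through lung development in each cell type. AT2 had 3 samples at P28 and 2 at each of E16.5, E18.5, P1, P7 and P14, where E counts days of gestation and P days after birth. EC had 2 samples at E16.5, P7, P14 and P28 and 1 at each of E18.5 and P1.

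MicroRNAs of this family repress messenger RNAs of the cell cycle machinery, among them D-type and E-type cyclins and their kinases, and the survival factor BCL2. They are made from clusters of neighbouring hairpins, so that the microRNAs of a cluster can be cut from the same primary transcript. In the mouse heart, miR-195 is known for its higher level after birth, when heart muscle cells stop dividing. The miR-322 and miR-503 cluster, whose human counterpart is called miR-424 and miR-503, is known for lowering CDC25A, a phosphatase that drives cell division, and for acting on the FGF pathway in human lung artery endothelium.

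The mature sequences, from RefSeq's annotation of GRCm38.p6, are shown because the seed defines the family and the remaining bases are what sets its members apart. Capitals mark the seed, bases 2 to 8.
miR-15a-5p: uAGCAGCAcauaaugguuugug
miR-15b-5p: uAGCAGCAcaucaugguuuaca
miR-16-5p: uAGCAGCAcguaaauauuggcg
miR-195a-5p: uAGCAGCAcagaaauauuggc
miR-497a-5p: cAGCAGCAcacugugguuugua
miR-322-5p: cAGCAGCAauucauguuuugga
miR-503-5p: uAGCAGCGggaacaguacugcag

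The same seed, AGCAGCA, stood in 6 of the 7. miR-503-5p differed from it at its last base, A8G, counted from 1 at the 5′ end of the microRNA. Outside the seed the members diverged. miR-16-5p and miR-195a-5p were 3 edits apart, miR-15a-5p and miR-15b-5p were 4, and miR-322-5p and miR-503-5p, although neighbours in the genome, were 11. How far the panel's probes tell such near relatives apart is not given in the sources used here, and it was not tested. Of the 1679 mature mouse names in the RefSeq table, at least 4 others held the same seed, miR-195b, miR-6342, miR-6353 and miR-6419. Names on 1 chromosome were left out of that search, so the list may not be complete.

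The 7 microRNAs came from 8 hairpins in 4 clusters. miR-15a-5p lies at chr14:61632075-61632096 on the minus strand, and 1 of the 2 copies of miR-16-5p lies at chr14:61631936-61631957, with 54 bases between the hairpins, inside the long non-coding RNA gene Dleu2. miR-15b-5p lies at chr3:69009775-69009796 on the plus strand, and the other copy of miR-16-5p at chr3:69009918-69009939, with 66 bases between the hairpins, inside Smc4, which codes for a condensin subunit. Both copies give the same mature sequence, so the miR-16-5p probe sums over them. miR-497a-5p at chr11:70234730-70234751 and miR-195a-5p at chr11:70235062-70235082, on the plus strand, have 241 bases between their hairpins and no annotated gene spanning them. miR-503-5p at chrX:53054027-53054049 and miR-322-5p at chrX:53054306-53054327, on the minus strand, have 200 bases between their hairpins, inside the long non-coding RNA gene C430049B03Rik.

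MicroRNA counts per sample ranged from 26640, in AT2 P28 replicate 1, to 571715, in EC P1. Levels are given in scaled counts, the deposited values, which are each sample's counts times 1 factor (0.296 to 7.93 over the samples). A factor multiplies background too, so that the level below which a probe could not be told from background lay between 6.16 and 95.1 scaled counts. Identifiers of other probes could not be matched to names, so the cell labels could not be checked against the microRNAs known for each cell type. By correlation over the tested microRNAs, 22 of the 23 samples were most like another sample of their own cell type. The exception was EC P14 replicate 2, which was most like AT2 P7 replicate 2 (r = 0.958). The probe MIMAT0000138, at 336 to 10208 scaled counts in AT2, was at 48398 in that sample and at 75076 to 196814 in the other EC samples. It took 23.4% to 44.9% of the microRNA counts of the EC samples, which lowers other probes there in counts scaled to the microRNA total. The probe MIMAT0001542, at 290 to 1991 scaled counts in AT2, was at 365 in EC P1, 172 in EC P14 replicate 2 and 135 in EC P28 replicate 2, and at 3.86 to 28.8 in the other EC samples. In AT2 P28 replicate 3, the single probe MIMAT0003484 took 62.8% of the microRNA counts. The comparisons of the members were also run without these samples. Whether 2 samples of a group stem from different animals is not said in the labels. The p-values here therefore cover the scatter among these samples, which may be technical. In sorted bulk RNA, fewer cells of a kind and less of a microRNA per cell cannot be told apart.

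miR-322-5p and miR-503-5p were lower after birth in both cell types. In AT2, miR-322-5p was at 9052 and 6102 scaled counts at E16.5, 15245 and 10729 at E18.5, 5003 and 8209.5 at P1, 4139.6 and 4148 at P7, 2480.4 and 2564 at P14, and 892, 955 and 397 at P28. Every P28 sample was below every earlier sample, as were 8.94% of the 302 tested microRNAs, and the 5 samples of P14 and P28 were below all 8 of P7 and before, as were 4.97%. The late stages (P7, P14 and P28) were lower than the stages before birth (E16.5 and E18.5) by 2.33 ± 0.28 on the log2 scale (SE), a fitted fold of 0.199 (limma, adjusted p = 1.82e-06). In AT2 E18.5 replicate 2, miR-322-5p was the largest single probe of the panel, with 7.09% of the microRNA counts (95% Wilson interval 6.89% to 7.29%, counting error only). By group means the order ran E18.5, E16.5, P1, P7, P14 and P28. Of the steps from 1 stage to the next, P28 against P14 alone passed the test in AT2, at -1.85 ± 0.41 (adjusted p = 0.0229), where 1.32% of the tested microRNAs were lower. That step rested on few samples. Without AT2 P28 replicate 3 it was -1.45 (adjusted p = 0.0722), without AT2 P14 replicate 1 it was -1.88 (adjusted p = 0.192), and without AT2 P28 replicates 1 and 3 together it was -1.40 (adjusted p = 0.352). With the mean background subtracted or a common floor the difference was -1.87 and -1.85 and did not pass (adjusted p of 0.0520 and 0.0734). The late-to-early difference without those 2 samples was -2.18 and still passed.

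In EC, miR-322-5p was at 5361 and 9627 scaled counts at E16.5, then 8902 at E18.5 and 5019.9 at P1, 5762 and 4735 at P7, 5022 and 2840.3 at P14, and 2767 and 2152 at P28. Both P28 samples were below all 8 earlier ones, as were 10.6% of the tested microRNAs, while the late and early samples as a whole overlapped. The late stages were lower than the early ones by 1.14 ± 0.33 on the log2 scale (adjusted p = 0.0154). Without EC E16.5 replicate 2 the difference was -0.98, and without the 1 sample at E18.5 it was -0.93, and in both cases the adjusted p no longer passed (0.0599 and 0.0697). Without the 3 EC samples in which MIMAT0001542 was high (P1, P14 replicate 2, P28 replicate 2) it was -0.94 and did not pass. The call was also lost with each sample shifted to 1 median (-0.53, adjusted p = 0.281), with edgeR (-0.64, adjusted p = 0.184) and in counts scaled to the microRNA total (-1.22, adjusted p = 0.0624).

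**Figure D1:**
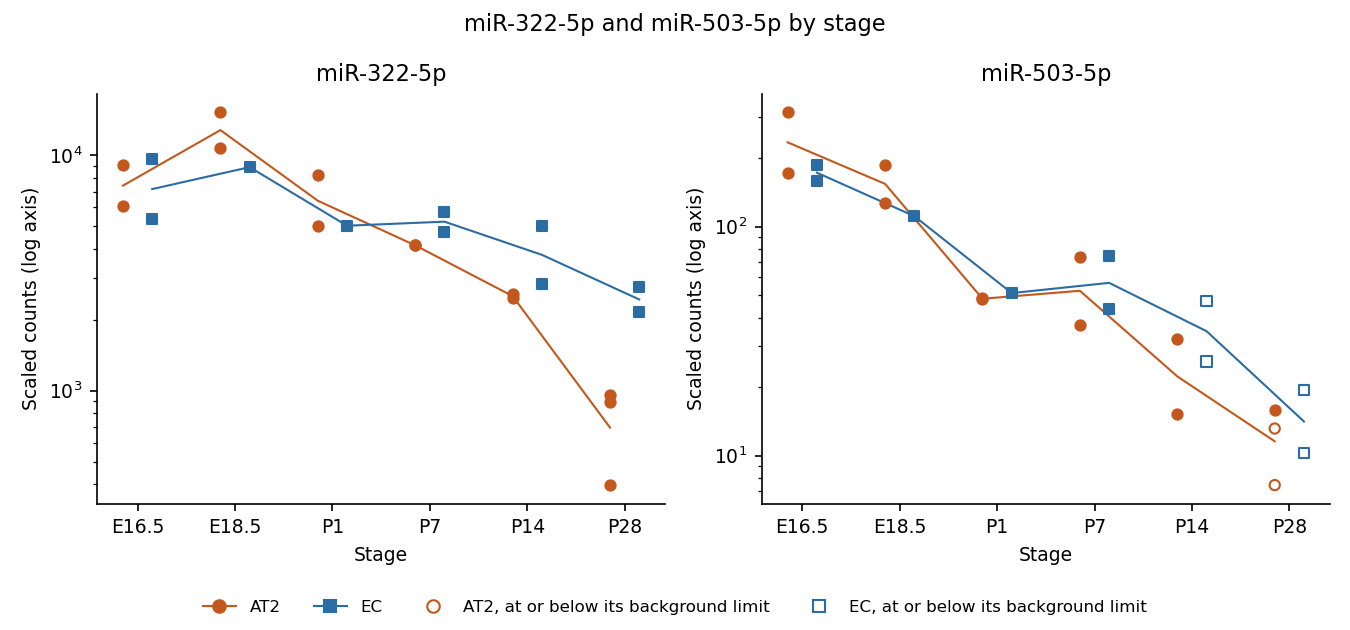
Levels of miR-322-5p (left) and miR-503-5p (right) in scaled counts, on a log axis, by stage, with AT2 as circles and EC as squares. Each symbol is 1 sample, open symbols are at or below background, and lines join geometric means. In AT2 miR-322-5p lies at 397 to 955 at P28, below every earlier sample.

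miR-503-5p, made beside miR-322-5p, ran lower in scaled counts and was close to background at the last stages. In AT2 it was at 316 and 172 scaled counts at E16.5, 186 and 126 at E18.5, 48.7 and 48.1 at P1, 73.6 and 37.3 at P7, 15.2 and 32.4 at P14, and 7.43, 15.8 and 13.1 at P28. The last group holds 1, 21 and 11 counts, and only the replicate with 21 was above background. The 7 late samples were all below the 4 early ones, as were 24.8% of the tested microRNAs. The late stages were lower by 2.93 ± 0.33 on the log2 scale (adjusted p = 8.35e-07). With samples at background set to their limit, the late level was at least 8.28-fold lower in the values as deposited. AT2 P28 replicate 1 entered at its limit of 1 count. With each sample shifted to 1 median the log2 difference was -2.04, a smaller change. In EC miR-503-5p was at 159 and 186 scaled counts at E16.5, then 111 at E18.5 and 51.2 at P1, 74.03 and 43.5 at P7, 47.4 and 25.8 at P14, and 19.3 and 10.3 at P28. The 4 samples of P14 and P28 were not above background. The late stages were lower by 2.14 ± 0.39 (adjusted p = 0.000373) and, by the bound on values as deposited, at least 3.09-fold. Without the 3 EC samples named above the difference was -1.86 and still passed.

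The difference between cell types in these changes did not pass the test for any member, where 6.29% of the tested microRNAs did. For miR-322-5p the late-to-early change was lower in AT2 than in EC by 1.19 ± 0.43 on the log2 scale (adjusted p = 0.135, 95% interval -2.10 to -0.28), and after quantile normalization it was -1.63 and passed (adjusted p = 0.0474). Averaged over stages, AT2 minus EC was -0.30 for miR-322-5p (adjusted p = 0.178), and without the 3 EC samples named above it was -0.55 and passed (adjusted p = 0.0360). In counts scaled to the microRNA total without the largest probe of AT2 P28 replicate 3 it was 0.67, higher in AT2, and passed (adjusted p = 0.00374). The median over all tested microRNAs was then 0.51, with 150 of them higher in AT2 and 42 lower. For miR-503-5p the difference between cell types in the late-to-early change was -0.79 ± 0.51 (adjusted p = 0.504). Stage by stage, the AT2 minus EC difference of miR-322-5p was 0.05 at E16.5 and 0.52 at E18.5, then 0.35 (P1), -0.33 (P7), -0.58 (P14) and -1.81 (P28). Only the difference at P28 passed the test, with an SE of 0.41 and an adjusted p of 0.00281, where 18.2% of the tested microRNAs were lower in AT2. All 3 AT2 samples at P28 (397 to 955 scaled counts) were below both EC samples (2152 and 2767), as was so for 31.5% of the tested microRNAs. Without EC P28 replicate 1 it was -1.63 (adjusted p = 0.0536), without AT2 P28 replicates 1 and 3 it was -1.35 (adjusted p = 0.0611). In counts as a share of each sample's microRNA total it was -1.30 (adjusted p = 0.119), and in those counts without the largest probe of AT2 P28 replicate 3 it was -0.79 (adjusted p = 0.104). For miR-503-5p no stage passed, and its values at P28 were mostly at background in both cell types.

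miR-195a-5p and miR-497a-5p, the chromosome 11 cluster, had the largest differences between cell types among the members. miR-195a-5p lay between 3.97 and 20.2 scaled counts (median 7.43) in the 13 AT2 samples and between 33.3 and 197 (median 65.3) in the 10 EC samples. The ranges did not overlap, as was so, with AT2 below EC, for 4.97% of the tested microRNAs. Only 3 AT2 samples were above background, both P7 samples and P14 replicate 2, at 11.4 to 20.2 scaled counts (26 to 68 counts). In EC miR-195a-5p was at 48.9 and 33.3 at E16.5 and 47.6 at E18.5, none above background. It was at 37.4 at P1, 123 and 81.8 at P7, 152 and 35.4 at P14, and 197 and 178 at P28, all above background. Both P28 samples were higher than all 8 earlier ones, as were 5.30% of the tested microRNAs.

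Averaged over the 6 stages, miR-195a-5p was lower in AT2 than in EC by 2.87 ± 0.30 on the log2 scale (adjusted p = 3.73e-07). That average takes in E16.5 and E18.5, where no sample of either cell type was above background. Over the late stages, where all 6 EC samples were above background, AT2 was at least 7.68-fold lower against its background limits, with values as deposited. miR-497a-5p lay between 1.16 and 9.46 scaled counts in AT2, where 1 of 13 samples was above background. In EC it was at 27.5 and 36.1 at E16.5, then 7.93 (1 count) at E18.5 and 18.1 at P1, 65.9 and 47.0 at P7, 55.6 and 11.3 at P14, and 65.6 and 52.4 at P28, of which those at P1, P7 and P28 were above background. The 2 ranges met only through the EC sample at E18.5. The fitted difference for miR-497a-5p was -2.23 ± 0.29 (adjusted p = 3.52e-06). With 1 AT2 sample above background, miR-497a-5p was among the tested microRNAs through EC, where it was higher, and 5 of the 10 EC samples were themselves at background, so the size of its difference is not a measured fold. For the 9 specimen numbers found in both cell types, AT2 was the lower of the 2 samples in 9 for miR-195a-5p and in 8 for miR-497a-5p. Those counts take in specimens of E16.5 and E18.5, where both samples were at background. The median background limit was 35.7 scaled counts in EC and 14.5 in AT2, so a lower AT2 value at background is not a difference in level. Without the 3 EC samples with high MIMAT0001542 the differences were -3.09 and -2.32. Taken stage by stage, miR-195a-5p passed at P1, P7, P14 and P28 (-2.86, -2.77, -2.72 and -3.80), where the EC samples were above background, and miR-497a-5p did so at P1, P7 and P28 (-3.02, -2.86 and -3.23). At E16.5 and E18.5 for both members, and at P14 for miR-497a-5p, every sample of both cell types was at background, so no difference in level is read there. The share of tested microRNAs lower in AT2 was 19.5% at E16.5, then 1.99% (E18.5), 6.95% (P1), 31.8% (P7) and 19.2% (P14).

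**Figure D2:**
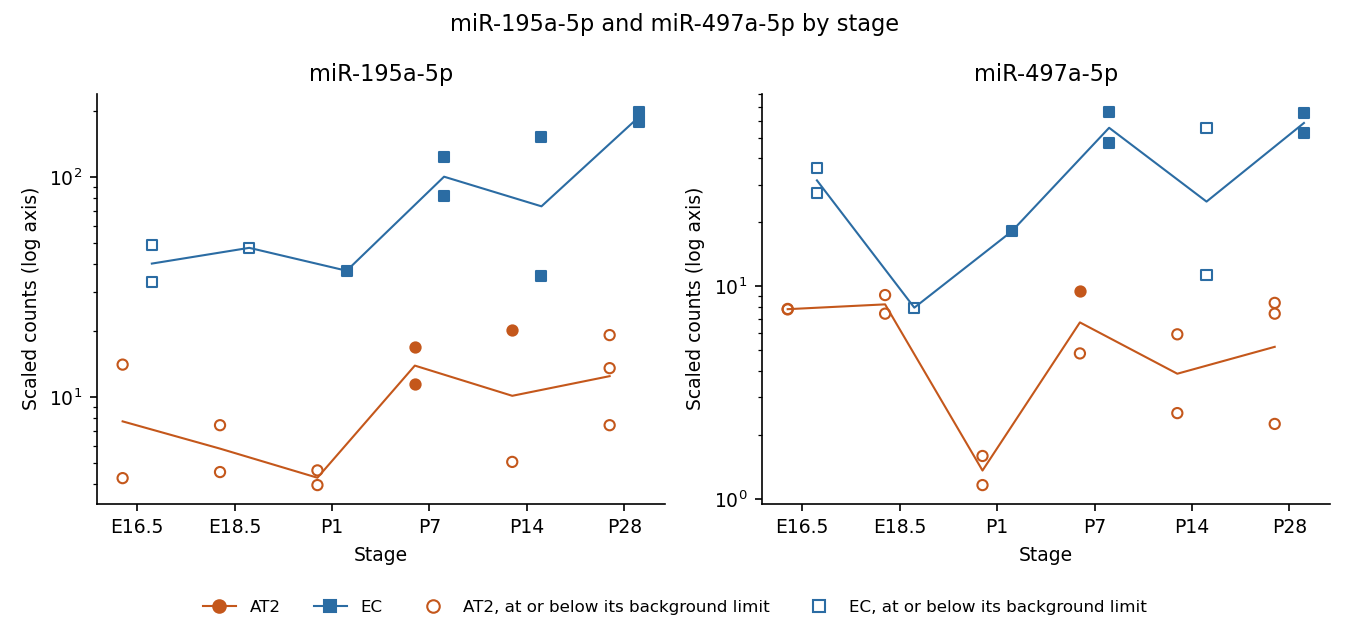
Levels of miR-195a-5p (left) and miR-497a-5p (right) in scaled counts, on a log axis, by stage, with AT2 as circles and EC as squares. Symbols are samples, open where at or below background, and lines join geometric means. AT2 samples of miR-195a-5p stay at 20.2 or less, and EC samples reach 197 at P28.

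The same pair was higher late than early in EC, near the limit of the test. The log2 difference was 1.33 ± 0.51 for miR-195a-5p (adjusted p = 0.0495) and 1.39 ± 0.49 for miR-497a-5p (adjusted p = 0.0347), where 9.27% of the tested microRNAs were higher. The early EC samples were all at background. Against their limits, with values as deposited, miR-195a-5p was at least 1.96-fold higher late, while for miR-497a-5p the bound gave no fold. The miR-195a-5p call held when any 1 of 8 samples was left out and was lost for the other 15, with differences of 0.98 to 1.46 and adjusted p of 0.0526 to 0.125. The samples whose loss left it standing were EC P1, EC P14 replicate 2, both AT2 E16.5, both AT2 P14, and AT2 P28 replicates 1 and 3. The miR-497a-5p call was lost without any 1 of 7 EC samples (both of E16.5, both of P28, E18.5, P7 replicate 1 and P14 replicate 1), at 0.46 to 1.49 with adjusted p of 0.0502 to 0.535. Without the 3 EC samples with high MIMAT0001542, the differences were 1.70 and 1.81, and both passed. In counts scaled to the microRNA total they were 1.25 and 1.35, and neither passed. The miR-195a-5p call was also lost with the prefix of the specimen numbers as a covariate, and the miR-497a-5p call with a common floor. In AT2 the late-to-early differences, 0.75 ± 0.44 and -0.52 ± 0.42, did not pass, and nearly all values were at background. For miR-195a-5p the difference passed with each sample shifted to 1 median (1.64, adjusted p = 0.00285), after quantile normalization (1.70, adjusted p = 0.00348) and with edgeR (1.61, adjusted p = 0.0101). Its 4 early AT2 samples were all at background and 3 of the 7 late ones were above it. The difference between cell types for miR-497a-5p was -1.92 ± 0.64 (adjusted p = 0.0981). Without EC P14 replicate 2 it was -2.28 (adjusted p = 0.0146), and without the 3 EC samples together it was -2.34 (adjusted p = 0.0155).

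miR-15a-5p, miR-15b-5p and miR-16-5p were well above background in all 23 samples. miR-15b-5p, of the Smc4 cluster, changed with stage. In AT2 it was at 5110.3 and 3136 scaled counts at E16.5, 3169 and 3206 at E18.5, 1454 and 1173 at P1, 2238.5 and 2128 at P7, 3130.2 and 2483 at P14, and 2424, 1736.5 and 837 at P28. The 7 late samples lay just below the 4 early ones (highest late 3130.2, lowest early 3136), a separation that 24.8% of the tested microRNAs showed, and the P1 samples were lower than all but 1 of the late samples. In EC it was at 5514 and 6091 at E16.5, then 3567 at E18.5 and 2024 at P1, 4009 and 3092 at P7, 2652 and 2655 at P14, and 1806 and 1429 at P28. The P28 samples were the lowest in EC, as were those of 10.6% of the tested microRNAs. The late stages were lower by 0.77 ± 0.26 on the log2 scale in AT2 (adjusted p = 0.0199) and by 0.88 ± 0.30 in EC (adjusted p = 0.0309). Both calls were lost with each sample shifted to 1 median, where the differences were 0.12 in AT2 and -0.28 in EC, and with edgeR, where they were -0.14 and -0.34. In counts scaled to the microRNA total the differences were larger than as deposited, at -0.93 in AT2 and -0.97 in EC, but did not pass (adjusted p of 0.0719 and 0.142). The AT2 call was lost without AT2 E16.5 replicate 1 or AT2 E18.5 replicate 2 (-0.59 and -0.76). The EC call was lost without any 1 of both E16.5 samples, P7 replicate 2 and P28 replicate 2 (-0.92 to -0.82), and without the 3 EC samples with high MIMAT0001542 together (-0.83).

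miR-15a-5p, of the Dleu2 cluster, was lower in AT2 than in EC. It lay between 1199.7 and 2799 scaled counts in AT2 (median 1725) and between 1818 and 4644 in EC (median 3309), with overlap. Averaged over stages the difference was -0.72 ± 0.16 on the log2 scale (adjusted p = 0.000805). AT2 was lower in 8 of 9 specimens with both cell types. As deposited, the panel itself leaned to lower AT2 values, with a median difference of -0.43. Taken relative to the panel's median, miR-15a-5p differed by -0.37 to -0.24 over 5 scalings. How many other microRNAs were lower in as many specimens was not counted. AT2 minus EC for miR-15a-5p passed at E16.5 (-1.04, adjusted p = 0.0376) and at P7 (-0.94, adjusted p = 0.0482). The call did not hold with a shift to 1 median or with edgeR, and in counts scaled to the microRNA total the difference was 0.08. The late-to-early differences of miR-15a-5p did not pass in AT2 (-0.21 ± 0.23) or in EC (-0.44 ± 0.27). With a shift to 1 median they were 0.67 in AT2, which passed (adjusted p = 0.0318), and 0.16 in EC.

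miR-16-5p, the sum of both copies, passed no test over stages in either cell type with values as deposited. In AT2 it was at 9243 and 7606 scaled counts at E16.5, 5288 and 4767 at E18.5, 6433 and 7525 at P1, 8018 and 6875 at P7, 6107 and 8042 at P14, and 8988, 9532 and 4101 at P28. In EC it was at 9098 and 17583 at E16.5, then 7745 at E18.5 and 8021 at P1, 16444 and 12079 at P7, 9370.1 and 5425 at P14, and 7706 and 9613 at P28. Late and early samples overlapped in both cell types. The late-to-early difference was 0.14 ± 0.27 in AT2 (adjusted p = 0.656, 95% interval -0.42 to 0.70) and -0.05 ± 0.31 in EC (adjusted p = 0.886, 95% interval -0.71 to 0.60). The AT2 difference depended on the scaling, being higher late and past the test after the median shift (1.03, adjusted p = 0.00558) and with edgeR (0.78, adjusted p = 0.0398), and -0.24 after quantile normalization (adjusted p = 0.505). The EC difference was 0.55 after the median shift (adjusted p = 0.244). AT2 minus EC was -0.44 ± 0.18 (adjusted p = 0.0421), a call lost when any 1 of 14 samples was left out (-0.47 to -0.36, adjusted p of 0.0506 to 0.0918) and 0.36, on the other side, in counts scaled to the microRNA total. The 9 samples whose loss left it standing were AT2 P14 replicate 2, all 3 AT2 P28 and 5 EC samples (P1, E16.5 and P28 replicate 1, P7 and P14 replicate 2).

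**Figure D3:**
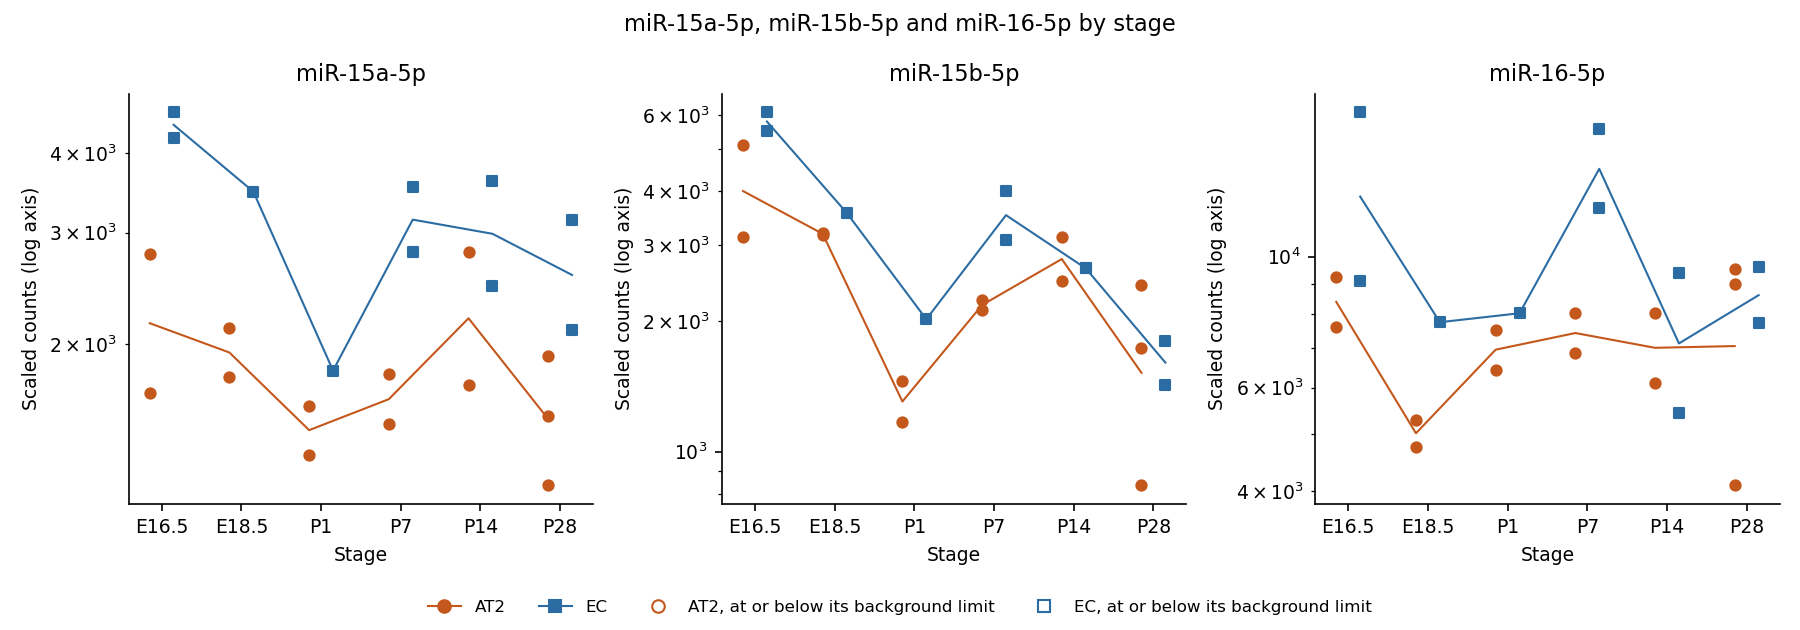
Levels of miR-15a-5p, miR-15b-5p and miR-16-5p (1 panel each) in scaled counts, on a log axis, by stage, with AT2 as circles and EC as squares. Symbols are samples and lines join geometric means. In AT2 miR-16-5p runs between 4101 and 9532 with no order by stage, and miR-15b-5p is between 837 and 5110.3.

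Counted over the family, 4 of 7 members were lower in AT2 than in EC and none was higher, where 47.7% of the tested microRNAs were lower and 19.5% higher. One of the 4, miR-497a-5p, was tested through EC as said above. Late against early, 3 of 7 were lower in AT2 and none higher, against 40.1% lower and 11.3% higher over the panel. In EC 3 of 7 were lower and 2 higher, against 27.8% lower and 9.27% higher. The 2 that were higher in EC, miR-195a-5p and miR-497a-5p, were at background in every early sample. The median over members was -0.44 against -0.43 over all tested microRNAs for AT2 minus EC, -0.52 against -0.64 for late minus early in AT2, and -0.44 against -0.57 in EC. By an F-test for any difference among the 6 stages, miR-15b-5p, miR-322-5p and miR-503-5p passed in AT2 (adjusted p of 0.0126, 1.73e-06 and 7.97e-06), as did 49.0% of the panel. miR-15b-5p and miR-503-5p passed in EC (adjusted p of 0.0294 and 0.00122), as did 27.2%, and miR-322-5p did not (adjusted p = 0.0614).

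**Figure D4:**
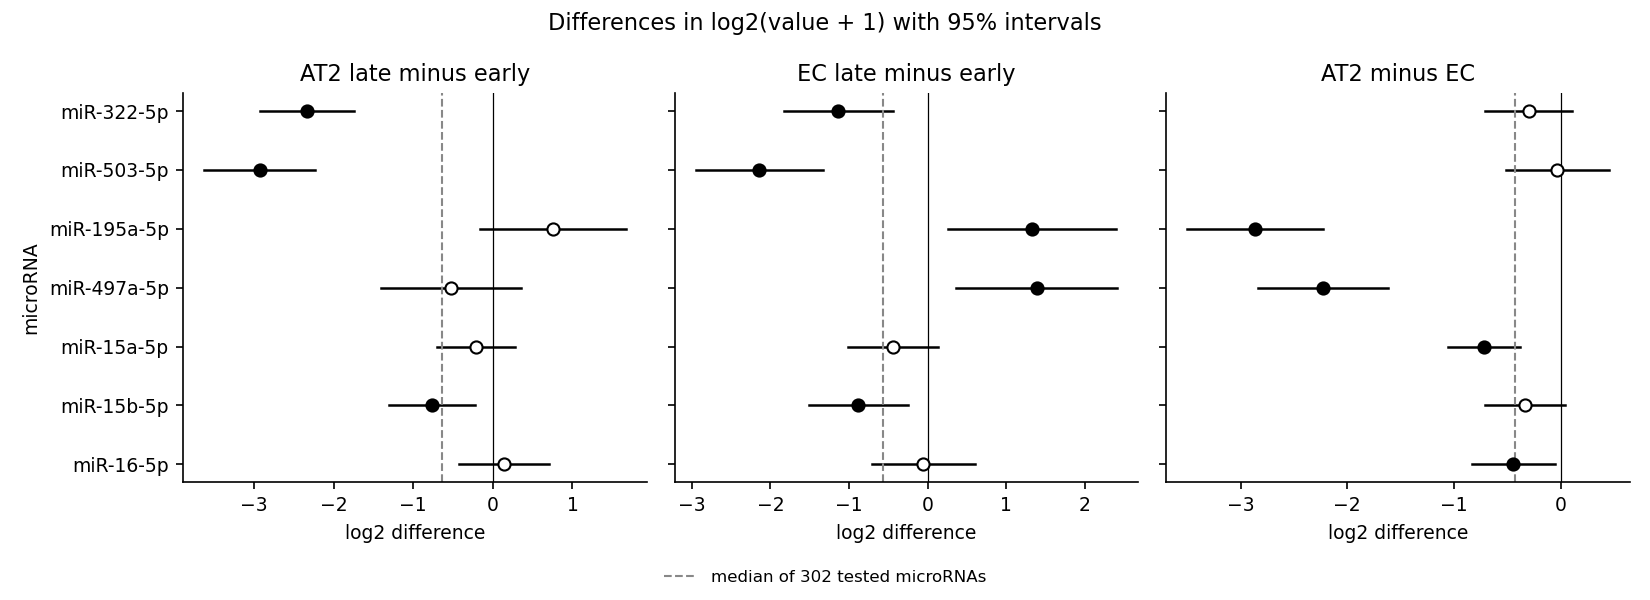
Log2 differences of the 7 members with 95% intervals, for late minus early in AT2, late minus early in EC and AT2 minus EC, from left to right. Filled symbols have an adjusted p under 0.05 and the dashed line is the median over the 302 tested microRNAs. miR-195a-5p (-2.87) and miR-497a-5p (-2.23) stand lowest between cell types, and miR-503-5p (-2.93) and miR-322-5p (-2.33) between stages in AT2.

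The panel's own shift depended on the scaling. Over all tested microRNAs, 59 were higher and 144 lower in AT2 than in EC as deposited, 88 and 102 after a shift to 1 median, 89 and 90 after quantile normalization, and 113 and 42 in counts scaled to the microRNA total. For late against early in AT2 the split was 34 higher and 121 lower as deposited, 77 and 48 after the median shift, 62 and 65 after quantile normalization, and 64 and 65 with edgeR. In EC it was 28 and 84 as deposited, 52 and 23 after the median shift, and 47 and 25 with edgeR. The median over the panel for late minus early in AT2 moved accordingly, at -0.64 as deposited, 0.24 after the median shift and -0.82 in counts scaled to the microRNA total. Read relative to that median, over the 5 scalings, late minus early in AT2 was -2.74 to -1.67 for miR-322-5p and -2.32 to -2.16 for miR-503-5p. In EC it was -0.57 as deposited for miR-322-5p, with a negative sign under all 5, -1.97 to -1.57 for miR-503-5p, 1.89 to 2.40 for miR-195a-5p and 1.96 to 2.10 for miR-497a-5p. AT2 minus EC, read the same way, was -2.54 to -2.22 for miR-195a-5p and -1.98 to -1.48 for miR-497a-5p. For both, all early EC and most AT2 samples were at background, so their ranges are not measured folds. miR-497a-5p was tested through EC, so a narrow range is no support for its differences. For miR-16-5p the relative value was near 0 between cell types (-0.01 to 0.12), and for late minus early in AT2 it took either sign (-0.32 to 0.83).

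Ratios of members within a sample do not depend on the scaling factor. Probes differ in how well they capture their targets, so such ratios compare samples and say nothing of which member is the more abundant. The log2 ratio of miR-322-5p over miR-16-5p lay between -3.37 and -0.73 (median -1.65) in late AT2 samples and between -0.32 and 1.53 (median 0.57) in early ones, without overlap. In EC it lay between -2.16 and -0.90 late and between -0.87 and 0.20 in the 3 early samples. These ranges nearly met, at -0.900 in EC P14 replicate 1 and -0.869 in EC E16.5 replicate 2. How many other microRNAs separate in this way over miR-16-5p was not counted for either cell type. Between the means over late and over early samples, each sample counting once, this ratio differed by -2.68 in AT2 and -0.91 in EC. miR-15b-5p over miR-16-5p, 2 microRNAs of the Smc4 cluster, differed by -0.97 in AT2 and -0.83 in EC, and miR-15a-5p over miR-16-5p by -0.38 and -0.33. miR-195a-5p over miR-16-5p was lower in AT2 than in EC by 2.63 on the log2 scale, with miR-195a-5p at background in most AT2 samples.

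The family held 1.34% to 12.2% of the microRNA counts in late AT2 samples (median 7.54%) and 11.9% to 15.1% in early ones (median 14.0%). In EC it held 3.58% to 7.60% late and 6.93% to 10.8% early. The lowest share, in AT2 P28 replicate 3, was 3.60% once its largest probe was left out of the total. Within the family, miR-322-5p and miR-503-5p together gave 6.24% to 7.04% of the counts in AT2 at P28, 17.2% to 17.5% at P14 and 52.6% to 59.3% at E18.5. In EC they gave 13.9% to 17.7% at P28 and 37.8% at E18.5. miR-195a-5p and miR-497a-5p gave 1.48% to 1.67% in EC at P28 and 0.184% to 0.307% before birth, and 0.0300% to 0.417% in AT2 over all stages. For both, all EC samples before birth and most AT2 samples were at background, so those shares cannot be told from background. The share of miR-16-5p in the family's counts in AT2 was 62.4% to 69.1% at P28 and 20.3% to 23.1% at E18.5.

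**Figure D5:**
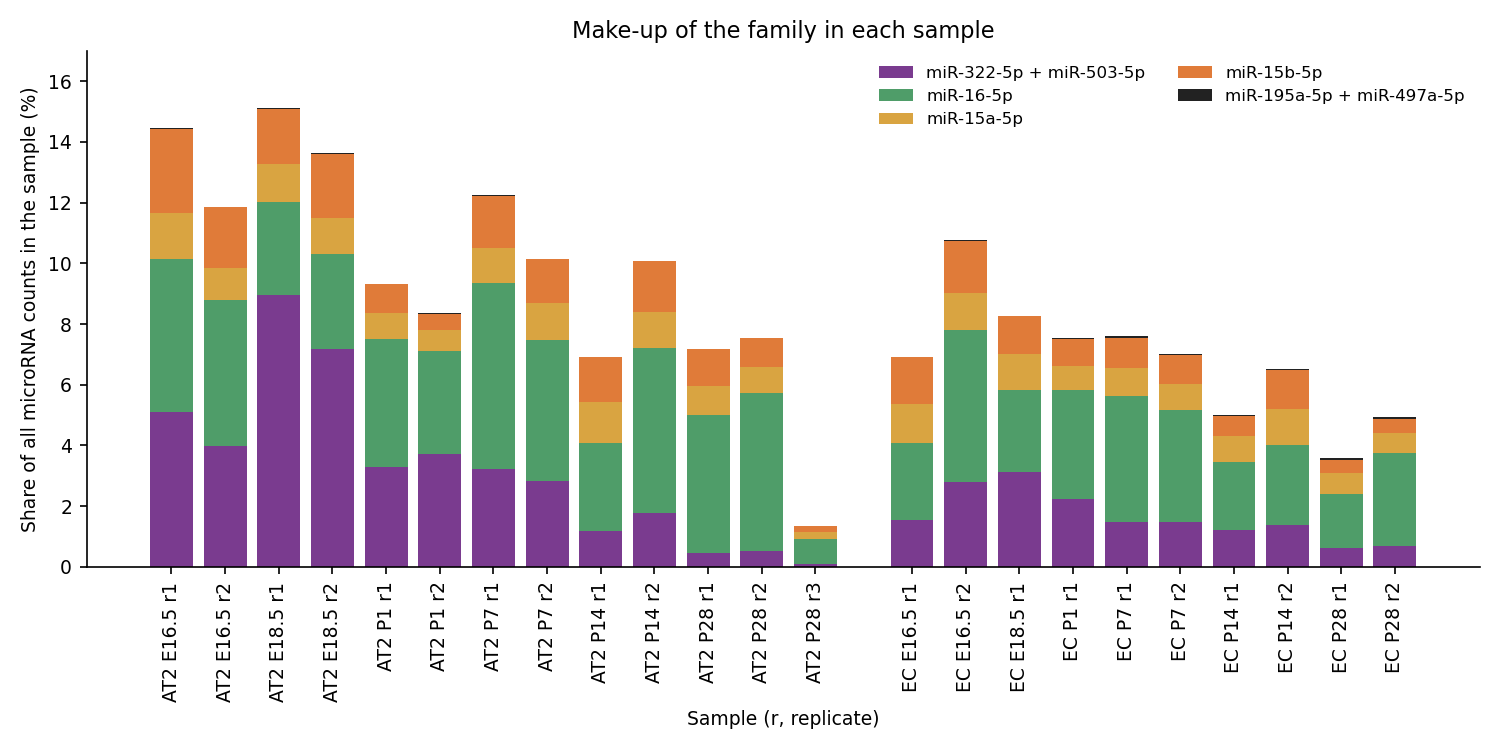
Share of all microRNA counts held by the family, in percent, 1 bar per sample with AT2 (left) before EC (right) and stages in order, split into members or pairs of members. AT2 bars reach 11.9% to 15.1% before birth, and the part for miR-322-5p with miR-503-5p is thinnest at P28.

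Over all 23 samples, Pearson's r of the log2 levels was 0.843 between miR-322-5p and miR-503-5p (0.860 in AT2 and 0.924 in EC), 0.878 between miR-195a-5p and miR-497a-5p (0.391 and 0.770), and 0.746 between miR-15a-5p and miR-15b-5p (0.815 and 0.806), which lie on different chromosomes. miR-16-5p was less like its neighbours, with r of 0.562 to miR-15a-5p (0.232 in AT2 and 0.423 in EC) and 0.476 to miR-15b-5p (0.295 and 0.512). To miR-322-5p, which lies in another cluster, its r was 0.194 (-0.016 and 0.502). The samples share stages, cell types and scaling factors, so these are descriptions only. Among the 206 probes above background in at least 12 samples, the most like miR-322-5p were MIMAT0000379 (r = 0.930), MIMAT0000237 (r = 0.865) and miR-503-5p, the third. The most like miR-503-5p was MIMAT0000387 (r = 0.922), and the most like miR-195a-5p was MIMAT0000160 (r = 0.914). These identifiers are unnamed here. No other member was among the 3 probes most like any member.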

How the data were processed

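Total RNA of sorted lung cells was prepared with the nCounter mouse microRNA kit and read on the mouse microRNA code set, as the labels' protocols say. A build, mm10, is named in the submitters' processing notes, and no tool or normalization is given in the sources used here. What the authors deposited is a signal in which each sample's nCounter counts were multiplied by 1 factor. All 13861 values above 1 gave whole counts within a tolerance of 0.1, and values under 1 had been set to 1 in 9 of 23 columns, none of them a member's. The table holds 626 rows, 602 of them microRNAs. Columns were matched to samples through the description each label gives, and cell type and age put the samples in 12 groups.

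Background was read from the 8 low ERCC control rows, with a limit per sample of their mean plus 2 SD, and 302 microRNAs above it in at least 2 samples were tested. In AT2 P28 replicate 1 those rows were all at 1 count, so its limit is 1 count. The main test was limma 3.58.1 run in R 4.3.3 (lmFit, then eBayes with the trend option) on log2 of the value plus 1, all 23 samples entering with a mean for each group, Benjamini-Hochberg adjusted over the 302 with a threshold of 0.05. Fold changes are on that scale and understate the change of low microRNAs. Late is the mean of P7, P14 and P28, early that of E16.5 and E18.5, and a group with a lone sample is assumed to vary like the others. Bounds set values of the lower group at or below background to the sample's limit, and are given only where every sample of the higher group was above background. They hold for the values as deposited, and other scalings can give smaller folds. edgeR 4.0.16 on the recovered counts, other scalings, filters and left-out samples were alternatives. Tested on simulated data for AT2 minus EC over 302 microRNAs, limma recovered 90% of 2-fold and 100% of 4-fold changes and called 4 of 102 unchanged ones. For late minus early in AT2 it recovered 74% and 99% and called 2 of 102. Late minus early in EC was not simulated. Counting error is only part of the error of shares and low counts. Member names follow the rule by which the family was chosen, and sequences are RefSeq's (GRCm38.p6). Besides the members, the rule allowed the 3 probes most like each member, which are given by identifier. The members and lists were chosen with earlier results of these data known. Lists of cell type markers and of cluster neighbours matched 0 probes by name and were not used. Figures were drawn with matplotlib 3.10.9.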

Additional observations from a re-analysis of the deposited data

How the results depend on the processing

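Each comparison was recomputed under 38 alternatives. Late minus early in AT2 for miR-322-5p (-2.66 to -1.45) and miR-503-5p (-3.52 to -0.98), late minus early in EC for miR-503-5p (-3.65 to -0.53), and AT2 minus EC for miR-195a-5p (-3.62 to -0.25) passed in all 38. Leaving out samples of P1 or of the other cell type cannot move a late-to-early difference. Those settings bear only on the spread and the adjustment, so the 38 are not separate checks. AT2 minus EC for miR-497a-5p passed in 37 and was lost with a common floor, where all its values stood at the floor. It was among the tested microRNAs through EC, so these passes are no support for its difference. Few counts limit miR-195a-5p, miR-497a-5p and late miR-503-5p, which were mostly at background. The cause of the changes below was not tested.

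Numbers of members that passed changed as follows. AT2 minus EC (4) had 2 after the median shift, with edgeR and with a common floor, and 3 to 5 with 1 sample left out. Late minus early in AT2 (3) had 5 after the median shift and 2 to 3 with 1 sample left out. Late minus early in EC (5) had 3 after the median shift and with edgeR, 1 in total-scaled counts, 3 without the EC samples with high MIMAT0001542 (P1, P14 replicate 2, P28 replicate 2), and 1 to 5 with 1 left out. The difference between cell types (0 by limma; 2 of 7 had an unadjusted p under 0.05) had 1 after quantile normalization, with array weights, without those 3 EC samples and without AT2 P28 replicates 1 and 3, 0 to 1 with 1 left out, and 0 with edgeR. Any stage in EC (2) had 1 in total-scaled counts and without the intensity trend, 4 with a pseudocount of 10 and with array weights, and 1 to 5 with 1 left out. Single steps between stages (1) had 2 after quantile normalization, in counts scaled to the microRNA total, with or without the largest probe of AT2 P28 replicate 3 and with a pseudocount of 10, 4 with no filter, 5 with array weights, 0 with a common floor, and 1 to 4 with 1 left out. AT2 minus EC stage by stage (13) had 5 after quantile normalization, 3 in total-scaled counts, 5 without the largest probe, 4 with background subtracted, 3 with a common floor, and 8 to 14 with 1 left out. Of the 13, 3 were between samples all at background (miR-195a-5p and miR-497a-5p at E16.5, miR-497a-5p at P14).

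Signs turned as follows. AT2 minus EC turned for miR-15a-5p in total-scaled counts (0.079, and 0.25 without the largest probe). For miR-15b-5p it was 0.013 after the median shift, 0.029 with edgeR, and 0.46 and 0.63 in those counts. For miR-16-5p it was 0.070 after quantile normalization, and 0.36 and 0.53 in total-scaled counts. For miR-322-5p it was 0.051 after the median shift, 0.31 after quantile normalization, 0.077 with edgeR, and 0.50 and 0.67 in total-scaled counts. For miR-503-5p it was 0.32 after the median shift, 0.29 after quantile normalization, 0.76 and 0.93 in total-scaled counts, 0.42 with edgeR, 0.68 with background subtracted, 0.15 with a common floor, 0.011 with a pseudocount of 10, 0.038 without AT2 P28 replicates 1 and 3, and -0.13 to 0.056 with 1 left out. Of these, total-scaled counts without the largest probe gave adjusted p of 0.00655 for miR-15b-5p, 0.0197 for miR-16-5p, 0.00374 for miR-322-5p and 0.00208 for miR-503-5p, all higher in AT2. In that setting the panel median was 0.51, with 150 microRNAs higher in AT2 and 42 lower. Late minus early in AT2 was 0.67 after the median shift and 0.38 with edgeR for miR-15a-5p, 0.12 after the median shift for miR-15b-5p, -0.24 after quantile normalization and -0.019 in total-scaled counts for miR-16-5p, and 0.36, 0.49, 0.081 and 0.72 after the median shift, quantile normalization, edgeR and background subtraction for miR-497a-5p. In EC it was 0.16 after the median shift and 0.092 with edgeR for miR-15a-5p, and for miR-16-5p 0.55 after the median shift, 0.45 with edgeR, 0.023 without the 3 EC samples, and -0.41 to 0.18 with 1 left out. The difference between cell types was -0.0046 for miR-15a-5p and -0.13 for miR-16-5p after quantile normalization, 0.13 for miR-503-5p with background subtracted, -0.060 to 0.47 for miR-15b-5p and -0.040 to 0.55 for miR-16-5p with 1 left out.

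Over the panel, the calls for AT2 minus EC (203) were 110 with a common floor and 467 with no filter. Late minus early in AT2 (155) had 86 with a common floor. In EC there were 55 in total-scaled counts, 72 with a common floor, 72 with edgeR and 192 with no filter. The difference between cell types (19) had 31 without the 3 EC samples, 47 with a common floor, 2 in total-scaled counts and 12 with edgeR. Any stage in AT2 (148) had 85 with a common floor and 93 with background subtracted, and in EC (82) 38 in total-scaled counts and 189 with no filter.

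Specimen numbers recur in both cell types, and the labels do not say whether a number stands for 1 animal. Of 7 same-numbered pairs 6 deviated together (r of 0.21 to 0.31) and 1 did not (r = -0.020). Pairs of the same stage gave the same r at E16.5 (0.274) and at P7 (0.281), so they are not separate evidence. The consensus correlation was 0.231. The fit without the block, which treats same-numbered samples as independent, was kept as the main test, and the block was an alternative. With the specimen as a replicate block, late minus early was -2.31 for miR-322-5p in AT2 and -1.09 in EC, AT2 minus EC for miR-195a-5p was -2.87, and no call of a member in these comparisons changed. Panel calls were 213, 155 and 128 for AT2 minus EC and late minus early in AT2 and in EC.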
